A study of Homo sapiens with 8 samples.

Results

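Transcripts with a single exon that match a reference transcript were taken from the long-read assembly of human pluripotent stem cells and their differentiated derivatives. Members carry the assembly's match code (class code "=") and exactly 1 exon, lie on chromosomes 1 to 22 or X, and have a row in the deposited table of counts for the combined assembly. The rule found 1526 of the 96614 counted transcripts (1.58%), from 1505 genes. The assembly holds 1829 such transcripts, of which 303 have no row of counts and are not analysed here. No measured value entered the rule.

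The cells were of H1, an embryonic stem cell line of human origin in wide use. Undifferentiated cells (hPSC) were kept in mTeSR1 medium on Matrigel. Differentiated cultures were collected after 5 days. Endoderm medium was RPMI with FBS, WNT3A and Activin A. Mesoderm medium held VEGF, BMP4 and bFGF, with Activin A at the start. For ectoderm, KOSR medium carried the inhibitors A83-01, PNU-74654 and Dorsomorphin. Each of the 4 groups has 2 libraries of polyadenylated RNA read on a PacBio Sequel II, from 503840 to 1180888 counts, and each layer was compared with hPSC. Nothing in the labels says that the repeats are separate cultures, so the p-values measure only the spread between these samples, which may be technical. The cultures were checked by gene sums of marker lists. Of 8 pluripotency markers, 5 were lower in ectoderm, 4 in endoderm and 7 in mesoderm. Layer markers were higher in their own layer for 4 of 5 tested in ectoderm (8 listed) and 6 of 6 in endoderm (7 listed). In mesoderm 3 of 5 tested (8 listed) were higher, BMP4, HAND1 and TBX3, and KDR was lower. The listed mesoderm markers TBXT, FOXF1 and MESP1 were not tested. Endoderm also had 4 of the 5 mesoderm markers higher (BMP4, HAND1, MIXL1 and TBX3) and 2 of the 5 ectoderm markers (OTX2 and PAX6). All 12 tested amnion and trophoblast genes were higher in mesoderm, with a summed 11179 and 12212 CPM (counts scaled to the same total in every library) against 674 and 651 in hPSC. In endoderm 3 of the 12 were higher and 3 lower, with a sum of 2679 and 3026 CPM, and in ectoderm 1 was higher and 3 lower, with 239 and 179. Their part in the results below was not tested.

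Most human genes are interrupted by introns, but some families are not. Histones, many G protein coupled receptors, several SOX transcription factors, some heat shock proteins and the protocadherin beta genes have coding regions in 1 exon, and retrocopies of spliced messages form processed pseudogenes that also lack introns. Long nuclear RNAs such as MALAT1 and KCNQ1OT1 are unspliced as well. A read of an unspliced transcript crosses no junction, so splicing gives no check on where it came from.

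Sequences are shown for the members whose results turn on related gene copies, an encoded small RNA or a 3′ end. The member of MIR302CHG, a host gene of stem cell microRNAs on the minus strand of chromosome 4 (112646719 to 112648700), spans 5 microRNA hairpins. The mature 3p products, from RefSeq on GRCh38.p14, are given with the seed (bases 2 to 8) in capitals.
miR-302a-3p: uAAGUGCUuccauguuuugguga
miR-302b-3p: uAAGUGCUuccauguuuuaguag
miR-302c-3p: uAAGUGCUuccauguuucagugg
miR-302d-3p: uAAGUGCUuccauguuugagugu
miR-367-3p: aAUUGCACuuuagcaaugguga
The miR-302 products share 1 seed, and miR-367 has another. In all, 10 of the 1526 members span a microRNA hairpin on their own strand, among them a member of VMP1 around MIR21 and a member of TIGD1 around MIR5001.

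The protocadherin beta genes stand in a row on the plus strand of chromosome 5, each with a promoter of its own. The 9-base word found most often within 250 bases upstream of the RefSeq starts was GGTGGCGCT. It was chosen by counting words in these same windows. It stood in 12 of 14 protocadherin beta windows, on either strand, and in 0.410% of the 35116 promoter windows of the same length. The word is printed in capitals for the 6 tested members with a promoter entry, plus strand, GRCh38.p14.
PCDHB2, chr5:141094545-141094574: agagacgcggGGTGGCGCTgcagccttaga
PCDHB5, chr5:141135180-141135205: taggacgcctGGTGGCGCTgcaggct
PCDHB10, chr5:141192300-141192329: gaggccacacGGTGGCGCTgcaggctaaag
PCDHB12, chr5:141208644-141208673: ggagacgcgtGGTGGCGCTgcaggataata
PCDHB15, chr5:141245315-141245344: gacaacgcatGGTGGCGCTgcaggctaagg
PCDHB16, chr5:141182311-141182340: gagaacgcgtGGTGGCGCTgcaggttaaga
The word starts from 70 to 16 bases upstream of the RefSeq start. PCDHB11 was the remaining tested member of the cluster. A match is a description of these letters and shows no binding.

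The heat shock genes HSPA1A and HSPA1B lie near each other on the plus strand of chromosome 6 and were tested as separate members. Their upstream windows are shown because both members moved in the same layer. Capitals mark GAANNTTC, the core of the heat shock element, and TATAAA.
HSPA1A, chr6:31815413-31815522: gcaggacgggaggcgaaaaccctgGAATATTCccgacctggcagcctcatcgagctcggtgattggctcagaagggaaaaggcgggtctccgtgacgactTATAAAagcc
HSPA1B, chr6:31827608-31827717: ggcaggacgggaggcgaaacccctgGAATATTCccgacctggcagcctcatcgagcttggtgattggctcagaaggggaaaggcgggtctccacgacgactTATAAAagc
GAANNTTC stood in 5.78% and TATAAA in 10.7% of all promoter windows, either strand.

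Polyadenylated RNA was selected, so 3′ ends are shown for 2 members with many counts. The last 30 bases of the GENCODE 29 reference transcripts on GRCh38 follow, both on the plus strand, with AATAAA or a terminal run of A in capitals.
MALAT1, chr11:65506440-65506469: tttgtgtAATAAAaatggagaagctctaaa
H4C3, chr6:26104281-26104310: tgagaacttcaaaaaacaaaaacAAAAAAA
The H4C3 member ended 27 bases beyond this reference end. Whether reads were primed on the internal run of A was not tested.

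By gene type, 661 members came from long noncoding RNA genes, 259 from protein-coding genes that also have spliced reference transcripts, and 221 from protein-coding genes whose reference transcripts are all unspliced. Pseudogenes gave 174 members, small or structural RNA 24, and 187 had a gene that GENCODE 29 does not list. The long noncoding class held 231 lincRNA, 211 antisense, 102 TEC and 72 sense intronic transcripts. Of the 259 in spliced coding genes, 115 were annotated as protein-coding and 107 as retained introns. The pseudogenes were mostly retrocopies, with 119 processed and 33 transcribed processed pseudogenes. The 221 members of fully unspliced genes took 48.9% of all 55875 member counts, although they were 14.5% of members.

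Members were shorter than spliced transcripts that match the reference, with a median length of 1824.5 nt against 2870 nt. The lengths ran from 200 to 89274 nt, the longest being KCNQ1OT1. Of the 1264 members listed in GENCODE 29 by identifier, 505 had both ends at the annotated base. The 3′ end lay within 50 nt of the annotated end for 82.9% and the 5′ end for 72.7%. Members were picked for matching the reference, so near ends are in part set by the rule. Whether the reads alone give these ends was not tested. A polyadenylation signal (AATAAA or ATTAAA) stood in the last 50 bases of 598 of the 948 members whose 3′ end was within 10 nt of the annotation (63.1%). Among spliced matched transcripts that share was 81.4%. A single group assembly held 53.9% of members and 35.5% of the spliced set, and all 4 assemblies held 11.5% and 32.5%. The median total was 5 counts for members and 23 for the spliced set, and the part of abundance in this contrast was not tested.

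Most members were rare. With 1 or 2 counts over all 8 libraries there were 466 members (30.5%), and 87 had at least 100. The most abundant, MALAT1, took 8.42% of all member counts, the 5 most abundant 30.9% and the 10 most abundant 38.9%. Between 535 and 1004 members were detected in a library. At an equal depth of 503840 counts the expected number was 717 and 720 for ectoderm, 678 and 568 in hPSC, 652 and 701 for mesoderm, and 520 and 496 for endoderm.

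Members together took 1.12% and 0.917% of the hPSC counts, with 1.16% and 1.20% for ectoderm, 0.766% and 0.758% for endoderm, and 1.00% and 1.07% for mesoderm. The means were 1.02% ± 0.146 (SD, n = 2), 1.18% ± 0.0290, 0.762% ± 0.00552 and 1.04% ± 0.0460. Both endoderm libraries were below the other 6. In ectoderm the mean without MALAT1 was 1.02% and in mesoderm 0.928%. The long noncoding class held 0.143% ± 0.0159 of the hPSC counts, with 0.320% ± 0.0245 for ectoderm, 0.116% ± 0.0101 for endoderm and 0.236% ± 0.0160 for mesoderm. No test was made on these sums.

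**Figure D1:**
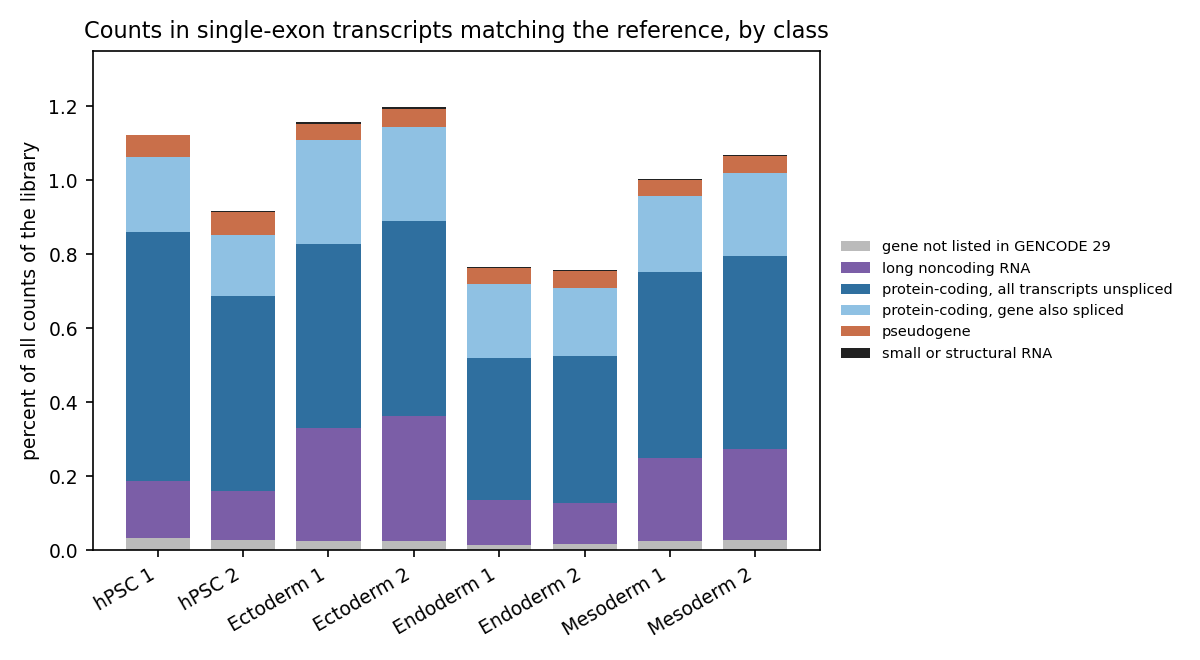
Percent of all counts of a library (vertical axis) in single-exon transcripts matching the reference, stacked by gene class, for the 8 libraries. The total lies between 0.758% and 1.20%, lowest in both endoderm libraries, and the long noncoding part is widest in ectoderm and mesoderm.

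The filter on low counts left 140 members, fitted by edgeR's quasi-likelihood method together with all 12440 transcripts that passed it. They were 81 of the 221 from fully unspliced genes, 36 of the 259 from spliced coding genes, 16 of the 661 long noncoding, 3 pseudogenes, 3 from genes outside GENCODE 29 and 1 structural RNA. The remaining members have values only. In bulk samples, fewer cells of a type and less RNA per cell cannot be told apart.

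Among the 4 groups, 100 of 140 members differed at a Benjamini-Hochberg adjusted p under 0.05, against a background of 77.3% of all tested transcripts. In ectoderm 53 of 140 differed from hPSC, where the background was 45.9%. Of these, 26 were higher (background 23.8%) and 27 lower (22.1%). Endoderm gave 36 (background 26.7%), 16 higher (13.1%) and 20 lower (13.6%). In mesoderm 43 differed (background 32.8%), 25 higher (16.5%) and 18 lower (16.3%). The median log2 fold change of the tested members was -0.05, -0.24 and 0.18, and that of all tested transcripts 0.01, -0.17 and 0.04. The 3 comparisons share the hPSC libraries. Of the 101 tested single-exon transcripts inside introns, 56 were higher and 12 lower in ectoderm. Of the 34 tested intergenic ones, 21 were lower and 2 higher in mesoderm.

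Leaving out single libraries moved these counts. The filter was applied anew each time, so from 168 to 177 members were tested rather than the same 140. The share called over all transcripts was not taken for these or any other alternative fits. Without ectoderm repeat 1 or 2 the ectoderm count was 32 or 35. The endoderm count was 72 without hPSC repeat 2, with 24 higher and 48 lower. Without hPSC repeat 1 the mesoderm count was 77, and without mesoderm repeat 1 or 2 it was 25 or 26. The hPSC repeats differed from each other among members. Of 140, 32 (22.9%) were over 4-fold lower in repeat 2 and none was over 4-fold higher (log2 ratio of CPM + 1). Among spliced matched transcripts 10.7% were lower and 1.04% higher. The 32 had a median GC content of 57.1% against 51.3% for the other members. By GC content, the median log2 ratio of repeat 2 to repeat 1 was -0.11 below 45%, -0.21 from 45 to 55%, -1.05 from 55 to 65% and -3.62 above 65%, where there were 5 members. Across the 132 members with a GC value, which are not independent, Pearson's r of that ratio with GC was -0.318 for the hPSC pair, -0.255 for ectoderm, 0.0664 for endoderm and 0.0320 for mesoderm. The ectoderm medians over the same GC ranges were 0.26, -0.012, -0.30 and -0.42. Of the 20 members lower in endoderm, 9 were among these 32. Whether GC content sets the difference was not tested. With a GC trend removed from each library, ectoderm had 31 members higher and 10 lower, against 26 and 25 in the same 132 members. With a length trend removed the split was 26 and 12. For mesoderm the GC trend changed 24 higher and 16 lower, of the same 132, to 29 and 11. DESeq2's Wald test kept 20 of the ectoderm calls, 22 of the endoderm calls and 19 of the mesoderm calls. Some members named below were not called by it. In ectoderm they were FJX1, HPDL, HSD17B1-AS1, HSPA1B, KCNQ1OT1, MAGEE1, PCDHB11, PCDHB16, RTL8A, SOX11, TBCC, ENSG00000237550 and ENSG00000288967. In endoderm they were CEBPB, FJX1, FZD2, PCDHB16, RTL8A, SOX3, SOX11, ZNF496-DT and ENSG00000288967. In mesoderm they were APLNR, FZD2, HPDL, KCNQ1OT1, MAGEE1, RPRM and ENSG00000288967. DESeq2 gave no adjusted p for MAB21L2 and PCDHB12 in ectoderm or for NOG and CEBPD in mesoderm.

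**Figure D2:**
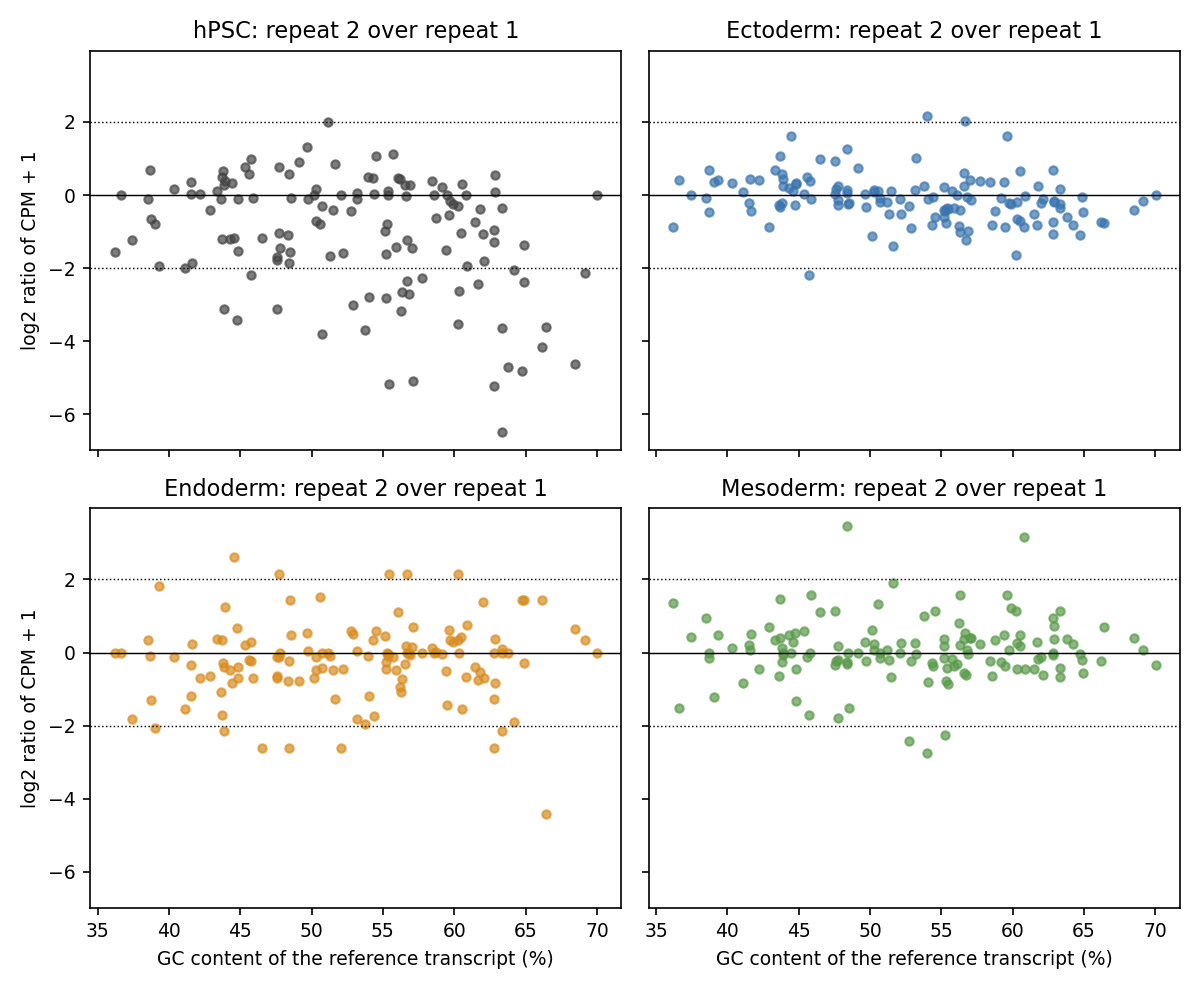
Each point is 1 of 132 tested members: the log2 ratio of CPM + 1 in repeat 2 over repeat 1 (vertical axis) against the GC content of its reference transcript in percent (horizontal axis), in a panel for each of the 4 groups. Dotted lines mark a 4-fold difference. Above 65% GC, the median of the 5 members is -3.62 for hPSC, -0.42 for ectoderm, 0.35 for endoderm and 0.070 for mesoderm. The ratio tends to be lower at high GC content in hPSC and ectoderm.

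Counts below are raw and in the order repeat 1, repeat 2. The ectoderm libraries were the deepest, at 1180888 and 967206 counts, so the same raw count there is a lower CPM; fold changes are scaled for depth. Long noncoding RNA held the member with the most counts. MALAT1 (ENSG00000251562.10, chromosome 11, 65497708 to 65506469), a nuclear RNA tied to splicing speckles, gave 34 and 41 counts for hPSC, 1709 and 1743 for ectoderm, 36 and 33 for endoderm, and 544 and 562 for mesoderm. Ectoderm and mesoderm stood clear of the other 4 libraries. The log2 fold change was 4.31 ± 0.34 (SE, edgeR adjusted p 4.24e-07) in ectoderm, 3.84 ± 0.34 (adjusted p 7.00e-07) in mesoderm and 0.04 ± 0.34 (adjusted p 0.961) in endoderm. This member held 50.4% of the counts of the gene, with 50.0% in hPSC and 50.4% in ectoderm. KCNQ1OT1 (chromosome 11, 2610721 to 2699994, minus strand), the antisense RNA of an imprinted domain, gave 7 and 3 counts for hPSC, 35 and 61 for ectoderm, 3 and 4 for endoderm, and 19 and 24 for mesoderm. It was higher in ectoderm, by 2.06 ± 0.55 on the log2 scale (adjusted p 0.00655), and in mesoderm, by 2.05 ± 0.58 (adjusted p 0.0135). Neither call held without the layer's repeat 2 (adjusted p 0.0787 and 0.0933), and with a length trend removed the ectoderm value was -0.089 and the mesoderm value 1.46 (0.0690).

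The MIR302CHG member, whose hairpins are printed above, gave 73 and 115 counts for hPSC, 156 and 112 for ectoderm, 176 and 144 for endoderm, and 0 in both mesoderm libraries. It was at least 29.8-fold lower in mesoderm, against a floor of 3 counts per library (edgeR adjusted p 7.50e-07). All other transcripts of the gene were at 0 in mesoderm too, since the gene sum was 971 counts for hPSC, 1179 for ectoderm, 670 for endoderm and 0 for mesoderm. In ectoderm and endoderm the adjusted p was 0.0825 and 0.0510. A polyadenylated host transcript is not a measure of the mature microRNAs.

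A pair of further members without a symbol had most of their counts in hPSC. ENSG00000282048 (chromosome 1, 114032377 to 114034511) gave 62 and 85 counts for hPSC, 0 and 2 for ectoderm, 4 and 2 for endoderm and 0 in mesoderm. It was 146-fold lower in ectoderm (95% interval from counting error 39.7 to 1217), lower by 4.42 ± 0.57 on the log2 scale in endoderm (a log2 fold change of -4.42, edgeR adjusted p 6.24e-05), and at least 23.3-fold lower in mesoderm. ENSG00000288967 (chromosome 5, 12624975 to 12626275) gave 24 and 41 counts for hPSC and 0 in the other 6 libraries. It was at least 21.1-fold, 11.6-fold and 10.3-fold lower in ectoderm, endoderm and mesoderm. DESeq2's Wald test gave adjusted p of 0.228, 0.411 and 0.331 for it, where edgeR gave 1.96e-05, 0.000227 and 0.000108. HSD17B1-AS1, an antisense RNA with 389 counts, was lower in ectoderm by edgeR (-1.03 ± 0.33, adjusted p 0.0179), but not without ectoderm repeat 1 or 2 (0.0886 and 0.264), nor with a GC trend (-0.26, 0.533) or length trend (-0.50, 0.219) removed. How the authors counted reads of antisense partners was not given in the sources used here. Over all 16 tested long noncoding members, 4 were higher and 3 lower in ectoderm, 0 and 1 for endoderm, and 5 and 2 for mesoderm. The share called was 43.8% in ectoderm (background 45.9%), 6.25% in endoderm (26.7%) and 43.8% in mesoderm (32.8%).

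Protocadherin beta genes code for adhesion proteins of the nervous system, and their promoters are printed above. Of 35 protocadherin members 7 were tested, all in the beta cluster. All 7 were higher in ectoderm, 3 in endoderm and none in mesoderm, with median log2 fold changes of 2.39, 0.74 and 0.27. Over all tested transcripts 23.8%, 13.1% and 16.5% were higher in those layers. PCDHB2 (chromosome 5, 141094606 to 141098703) gave 57.8 and 26.7 CPM for hPSC, 174 and 191 for ectoderm, 138 and 80.2 for endoderm, and 99.8 and 83.4 for mesoderm. No layer overlapped hPSC. It was higher by 1.91 ± 0.38 (SE, edgeR adjusted p 0.000895) in ectoderm and 1.67 ± 0.39 (adjusted p 0.00493) in endoderm, with 0.0945 in endoderm without endoderm repeat 1. PCDHB5 gave 36.6 and 33.8 CPM for hPSC and 161 and 129 for ectoderm, with 90.5 and 93.8 in endoderm and 65.9 and 55.6 in mesoderm. PCDHB10 gave 1 and 0 counts for hPSC and 52 and 36 for ectoderm, 44.3-fold higher (95% counting interval 7.75 to 1769), with at most 1 count in endoderm or mesoderm. PCDHB15 rose by 2.48 ± 0.50 in ectoderm (adjusted p 0.00110). PCDHB11, PCDHB12 and PCDHB16 were called in ectoderm, but not without ectoderm repeat 1, where the adjusted p was 0.0679, 0.0518 and 0.0817. PCDHB16 was also lost without hPSC repeat 2 (0.118), and its endoderm call was lost without any 1 of 7 libraries and with the replicate block (0.0619). With a GC trend removed its ectoderm adjusted p was 0.0527. Related copies could share reads. The reference transcripts of PCDHB15 and PCDHB10 are 72.8% identical over 3290 aligned bases. TAF7, a subunit of the general transcription factor TFIID encoded in the same region of chromosome 5, gave 59 and 78 counts for hPSC and 213 and 151 for ectoderm, at 0.17 ± 0.31 (adjusted p 0.675).

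**Figure D3:**
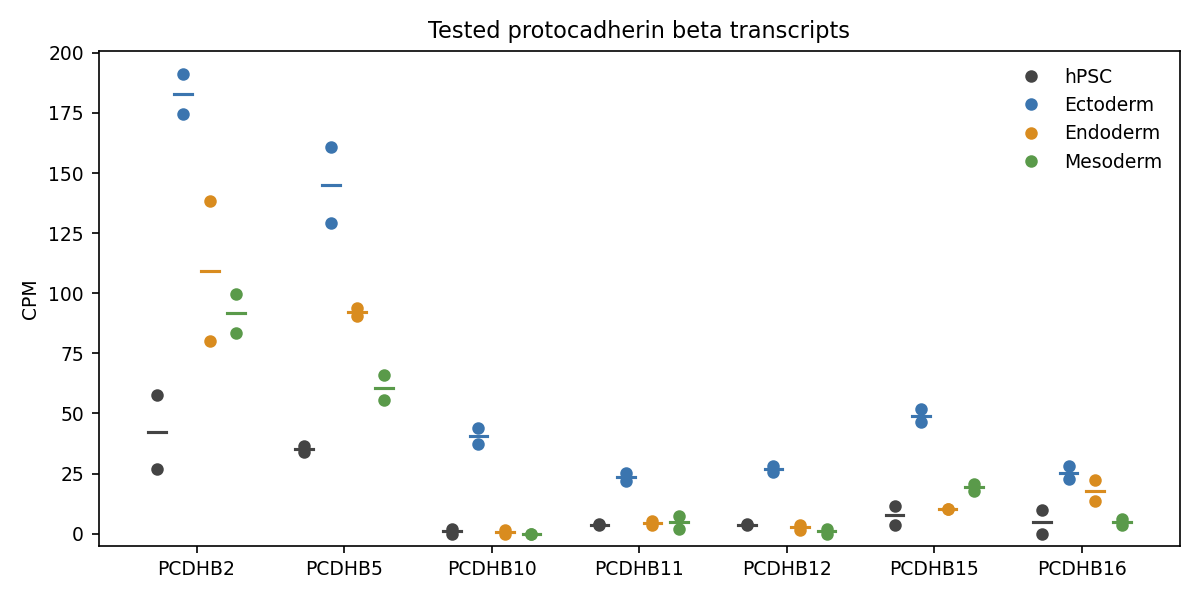
CPM (vertical axis) of the 7 tested protocadherin beta members in the 8 libraries. Points are libraries and lines are means of 2. Ectoderm points lie above the hPSC points in all 7, and the endoderm points of PCDHB2 and PCDHB5 lie between the hPSC and ectoderm points.

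SOX genes code for transcription factors of pluripotent and neural cells, and 6 of 7 members were tested. In ectoderm 2 were higher, in endoderm 4 were lower, and in mesoderm 1 was lower. Over all tested transcripts 23.8%, 13.6% and 16.3% were called in those directions, so the ectoderm and mesoderm counts, at 33.3% and 16.7%, were near the background. SOX21, a neural progenitor factor, gave 2 and 1 counts for hPSC, 58 and 35 for ectoderm, 0 in both endoderm libraries, and 2 and 0 for mesoderm. It was 15.6-fold higher in ectoderm (95% counting interval 5.18 to 77.0). SOX11 gave 12 and 6 counts for hPSC and 87 and 59 for ectoderm, a log2 fold change of 1.78 ± 0.49 (edgeR adjusted p 0.00783, and 0.0505 without ectoderm repeat 1). With a length trend removed it was 0.73 (0.282). Its endoderm counts were 0 and 2, 9.75-fold lower (2.34 to 86.7), a call lost without hPSC repeat 1 (0.0891), endoderm repeat 1 (0.211) or either ectoderm repeat (0.0501 and 0.0502), or with a GC trend removed (0.0506). SOX2 was at 0 in both endoderm and both mesoderm libraries and gave 71 and 5 counts for hPSC, with 180 and 129 for ectoderm. SOX3 was at 0 in endoderm and gave 46 and 0 counts for hPSC, so its endoderm call rested on hPSC repeat 1. The adjusted p was 1 without that repeat, and 0.0703 and 0.0657 without either endoderm repeat. SOX4 fell by 1.59 ± 0.37 in endoderm (adjusted p 0.00472), with 0.0942 without endoderm repeat 2, and had 0.82 ± 0.31 (adjusted p 0.0536) in mesoderm. SOX12 was not called in any layer.

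Histones package DNA, and most of their genes are intronless. Of 28 histone members 4 were tested. In endoderm 2 of these were lower, against 13.6% of all tested transcripts, and in mesoderm 2 were lower, against 16.3%. H4C3, a replication histone with the A-rich reference end shown above, gave 256 and 686 counts for hPSC and 187 and 218 for mesoderm. It was lower in mesoderm (-1.27 ± 0.41, adjusted p 0.0243), but at -0.35 (adjusted p 0.397) without hPSC repeat 2, with an adjusted p of 0.183 and 0.102 without either mesoderm repeat, and 0.10 with a length trend removed. H1-10 gave 99 and 2 counts for hPSC and 0 and 1 for endoderm, 109-fold lower (19.2 to 4365), and was not called without hPSC repeat 1 (adjusted p 0.460).

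Heat shock genes gave 3 tested members of 5. HSPA1A (chromosome 6, 31815532 to 31817942), an inducible chaperone, gave 29 and 28 counts for hPSC, 46 and 32 for ectoderm, 94 and 120 for endoderm, and 17 and 17 for mesoderm. Its copy HSPA1B had 29 and 20, 37 and 22, 113 and 114, and 32 and 39. Both were higher in endoderm, by 2.07 ± 0.33 (edgeR adjusted p 0.000309) and 2.37 ± 0.35 (0.000140) on the log2 scale. The reference transcripts are 91.1% identical over 2483 aligned bases, so reads could be split between the copies. HSPA1B was also called lower in ectoderm (-0.96 ± 0.37, adjusted p 0.0431), a call lost without hPSC repeat 1 (0.166) or any 1 of 6 other libraries, with the replicate block (0.0591), and with a GC trend (-0.059, 0.917) or length trend (-0.52, 0.268) removed. HSPA2, a testis-enriched relative, gave 59 and 89 counts for hPSC, 38 and 31 for ectoderm, 2 and 5 for endoderm, and 12 and 9 for mesoderm. It fell by 2.33 ± 0.37, 4.21 ± 0.50 and 2.85 ± 0.42 in the 3 layers, with adjusted p of 0.000176, 2.39e-05 and 0.000106.

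The list of immediate early and related small transcription factor genes comes next. Of 11 members 5 were tested, 2 of them higher in mesoderm, JUN and CEBPD, and 1 lower in endoderm, CEBPB. Over all tested transcripts 16.5% were higher in mesoderm and 13.6% lower in endoderm. JUN (chromosome 1, 58779704 to 58784043, minus strand) gave 5 and 2 counts for hPSC, 0 and 3 for ectoderm, 2 and 2 for endoderm, and 57 and 79 for mesoderm, a log2 fold change of 4.21 ± 0.57 (edgeR adjusted p 5.25e-05). CEBPD was at 0 in the other 6 libraries and had 19 and 14 counts in mesoderm, at least 5.72-fold higher. CEBPB gave 25 and 1 counts for hPSC and 0 and 1 for endoderm, a call lost without hPSC repeat 1 (adjusted p 0.823), either endoderm repeat (0.139 and 0.0644) or either mesoderm repeat (0.0514 and 0.0526). IER2 gave 118 and 23 counts for hPSC and was not called in any layer.

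Frizzled receptors bind WNT ligands, and 2 of the 14 members in the receptor family were tested. FZD7 gave 34 and 27 counts for hPSC, 69 and 46 for ectoderm, 34 and 52 for endoderm, and 8 and 1 for mesoderm, a fall of 2.78 ± 0.57 in mesoderm (edgeR adjusted p 0.00159). FZD2 gave 8 and 3 counts for hPSC, 106 and 63 for ectoderm, 0 and 1 for endoderm, and 28 and 18 for mesoderm. It was higher in ectoderm, by 2.68 ± 0.50 (adjusted p 0.000606), and in mesoderm, by 2.01 ± 0.55 (0.0103), with 0.0925 without mesoderm repeat 1. In endoderm it was 11.9-fold lower (95% counting interval 1.73 to 513), a call lost without any 1 of 7 libraries (highest adjusted p 0.255, without hPSC repeat 1). APLNR, the apelin receptor of early mesendoderm, had 0 in both hPSC libraries and 50 and 49 counts in endoderm, at least 15.2-fold higher. Its mesoderm counts were 4 and 2, called at an adjusted p of 0.0320 but 0.0846 and 0.103 without either hPSC repeat and 0.130 and 0.0524 without either mesoderm repeat.

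Of 9 retrotransposon-derived members 5 were tested. RTL8C and RTL8A, domesticated gag genes side by side on the X chromosome, were higher in endoderm and lower in ectoderm. RTL8C gave 48 and 42 counts for hPSC, 46 and 33 for ectoderm, 112 and 143 for endoderm, and 54 and 62 for mesoderm. Its log2 fold change was 1.67 ± 0.32 in endoderm (edgeR adjusted p 0.00127) and -1.41 ± 0.34 in ectoderm (0.00316), with 0.0700 in ectoderm without ectoderm repeat 2 and -0.52 (0.206) with a GC trend and -0.20 (0.650) with a length trend removed. RTL8A lost its ectoderm call without either ectoderm repeat (0.0927 and 0.172) and its endoderm call without either endoderm repeat (0.0664 and 0.166). Its ectoderm value was -0.51 (0.394) with a GC trend and -0.20 (0.760) with a length trend removed, and its endoderm value 0.91 (0.117) with the GC trend removed. PNMA1, RTL8B and ZCCHC3 were not called in any layer.

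Pseudogenes gave 174 members, of which 3 were tested. MTCO1P12, a nuclear copy of the mitochondrial gene MT-CO1, gave 58 and 124 counts for hPSC and 33 and 31 for mesoderm. It was lower in ectoderm (-1.43 ± 0.37, edgeR adjusted p 0.00571) and mesoderm (-1.56 ± 0.40, 0.00675), and neither call held without hPSC repeat 2 (0.0823 and 0.0552). The ectoderm call was also lost without ectoderm repeat 1 (0.0991), and the mesoderm call without either mesoderm repeat (0.0717 and 0.0761). With a length trend removed the ectoderm value was -0.22 (0.664). Its reference transcript is 98.6% identical to MT-CO1, which gave 5034 and 11696 counts for hPSC, and how reads shared between them were counted is not given in the sources used here. HMGB1P5, at 98.8% identity to HMGB1, was not called in any layer. ENSG00000237550 gave 180 and 161 counts for hPSC and from 106 to 222 in the other libraries, and its ectoderm call was lost without ectoderm repeat 1 (0.252) or repeat 2 (0.132), or either mesoderm repeat (0.0600 and 0.0588). TSPY26P had 56 counts in all and was not tested. Of 42 members with the symbol of a ribosomal protein pseudogene none had enough counts, with 181 counts together. RPL3P4 held 65 of them, and its reference transcript is 99.5% identical to an RPL3 transcript. This family was matched by symbol, so pseudogenes named only by identifier, such as ENSG00000237550, could not enter it. No transcript sequence was available for ENSG00000237550, so its identity to a parent gene was not measured. Reads shared with a parent gene could be part of its counts, and this was not tested.

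NANOGP8, an intronless retrocopy of the pluripotency gene NANOG that GENCODE 29 lists as protein-coding, gave 23 and 47 counts for hPSC, 1 and 2 for ectoderm, 26 and 15 for endoderm, and 0 in mesoderm. It was 46.4-fold lower in ectoderm (95% counting interval 15.2 to 230) and at least 11.0-fold lower in mesoderm, with a log2 fold change of -0.62 ± 0.46 in endoderm (edgeR adjusted p 0.333). The reference transcript is 99.5% identical to a NANOG transcript over 918 aligned bases. Counts of NANOG itself were 79 and 129, 3 and 0, 92 and 65, and 0 and 1. From these counts, reads of the copy and reads of NANOG cannot be told apart.

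Ectoderm had further members that were at or near 0 in hPSC. IRS4, an insulin receptor substrate, had 51 and 56 counts in ectoderm against 0 for hPSC, which is at least 9.10-fold higher, with at most 1 count elsewhere. This member held 44.3% of the counts of its gene, which had 8 counts in hPSC and 234 in ectoderm. MAB21L2, a gene of eye development, had 28 and 21 counts against 0, at least 4.09-fold higher. FJX1, related to the fly gene four-jointed, gave 13 and 0 counts for hPSC, 341 and 185 for ectoderm, 0 in endoderm, and 13 and 16 for mesoderm. It rose by 4.08 ± 0.62 in ectoderm (edgeR adjusted p 0.000160). HPDL was lower in ectoderm (-2.40 ± 0.53, 0.00191), with 0.0605 without ectoderm repeat 2 and -1.42 (0.0542) with a length trend removed, and MAGEE1 was lower too (-2.32 ± 0.75, 0.0191), with 0.256 without ectoderm repeat 1, 0.0814 without hPSC repeat 2 and 0.129 with a GC trend removed.

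In endoderm, DIO3, the enzyme that inactivates thyroid hormone, had 32 and 20 counts against 0 for hPSC, which is at least 7.99-fold higher. BORCS6, part of a complex that moves lysosomes, gave 5 and 3 counts for hPSC and 46 and 35 for endoderm, a log2 fold change of 3.47 ± 0.49 (edgeR adjusted p 0.000105). TSPYL4 rose from 17.3 and 30.2 CPM to 157 and 145, by 2.91 ± 0.39 (5.97e-05), and ATXN7L3B from 82.8 and 133 to 290 and 273, by 1.63 ± 0.36 (0.00326). Among the lower members, PRMT6, an arginine methyltransferase, had 2 tested transcripts. The longer one gave 29 and 19 counts for hPSC and 3 and 2 for endoderm (-3.06 ± 0.56, adjusted p 0.000873), and the shorter one 18 and 22 against 11 and 10 (-0.77 ± 0.43, 0.202). ZNF496-DT was 10.8-fold lower in endoderm (95% counting interval 2.63 to 95.6), and not called without hPSC repeat 1 (0.104) or without either endoderm repeat (0.0856 and 0.0841). PCBP1, an RNA-binding protein encoded by a retrocopy, gave 375 and 57 counts for hPSC, 201 and 108 for ectoderm, 35 and 29 for endoderm, and 244 and 301 for mesoderm. Its falls in ectoderm and endoderm rested on hPSC repeat 1, without which the log2 fold change was 0.11 (0.800) and -0.75 (0.128). The ectoderm call was also lost without either ectoderm repeat (0.0527 and 0.181) and with a GC trend (-0.98, 0.221) or length trend (-0.68, 0.369) removed.

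CLDN4, a tight junction protein, gave 46 and 61 counts for hPSC, 312 and 155 for ectoderm, 4 and 1 for endoderm, and 175 and 188 for mesoderm. It fell by 4.22 ± 0.56 in endoderm (edgeR adjusted p 5.64e-05) and rose by 1.72 ± 0.36 in mesoderm (0.00174). NOG, a secreted BMP antagonist, had 15 and 11 counts in mesoderm against 0 for hPSC, which is at least 4.50-fold higher. All 12 tested amnion and trophoblast genes were higher in these libraries too, and their part in the value of CLDN4 was not tested.

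**Figure D4:**
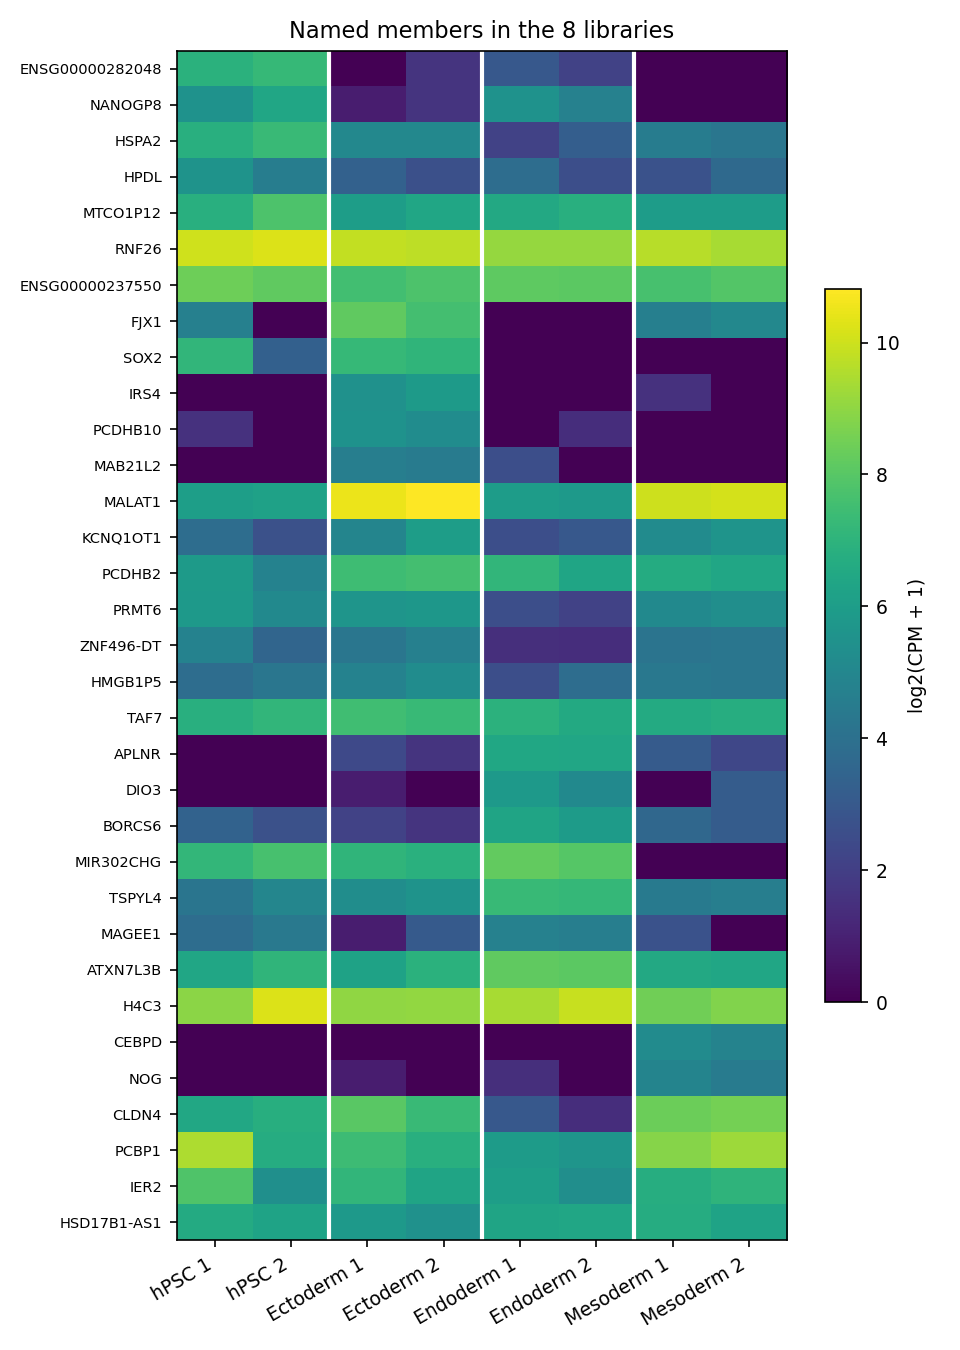
Heat map of log2(CPM + 1) for members named by rule (rows) in the 8 libraries (columns), with white lines between groups. MIR302CHG is at 0 in mesoderm, MALAT1 is brightest in ectoderm and mesoderm, and PCBP1 and SOX2 differ between the hPSC repeats.

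For 9 members called in opposite directions in 2 layers, the difference between those layers was taken from the same fit. These members were picked by those calls, so a small adjusted p for the difference is no further evidence. RPRM, a cell cycle regulator, gave 7 and 5 counts for hPSC, 0 and 2 for ectoderm, 28 and 43 for endoderm, and 0 and 1 for mesoderm. It was 11.9-fold lower in ectoderm (95% counting interval 2.65 to 110), 11.5-fold lower in mesoderm (1.70 to 491) and higher in endoderm by 2.71 ± 0.55 on the log2 scale (edgeR adjusted p 0.00190). The ectoderm call was lost without ectoderm repeat 1 (0.0776), and the mesoderm call without either mesoderm repeat (0.210 and 0.0744). With a length trend removed neither was called (0.0749 and 0.0830), nor was mesoderm with a GC trend removed (0.0644). TRIL gave 15 and 2 counts for hPSC, 0 in endoderm, and 53 and 53 for mesoderm, where it rose by 2.60 ± 0.53 (0.00165). Its endoderm value was at least 3.17-fold lower, and was not called without hPSC repeat 1 (0.130) or either endoderm repeat (0.0586 and 0.0569). The endoderm call of FJX1 was lost without hPSC repeat 1, where all counts are 0, without either endoderm repeat (0.140 and 0.136) or without either mesoderm repeat (0.0664 and 0.0690).

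**Figure D5:**
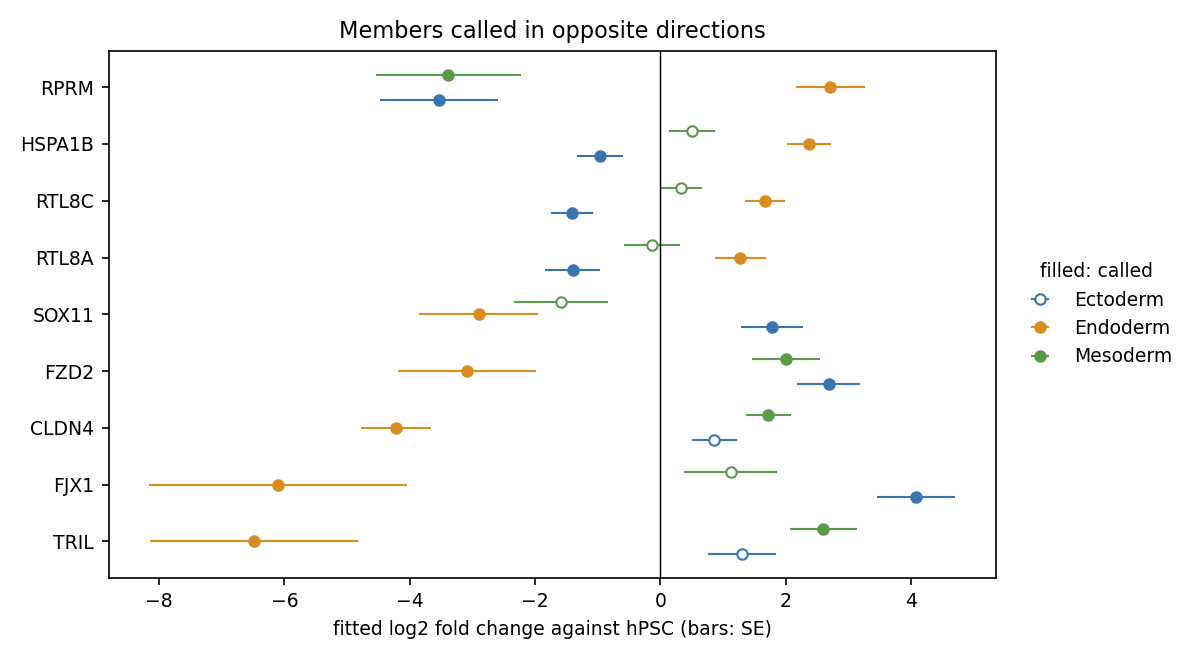
Fitted log2 fold change against hPSC (horizontal axis, bars are SE) of 9 members called in opposite directions, for the 3 layers. Filled points are called at an adjusted p under 0.05. CLDN4, FJX1, FZD2, SOX11 and TRIL lie low in endoderm, and HSPA1B, RPRM, RTL8A and RTL8C lie high. The endoderm points of FJX1 and TRIL rest on counts of 0 and are no measure of size.

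Apart from gene sums, which are not per transcript, up to 16 alternatives gave a value for a call. Calls that held under all those that did numbered 16 of 53 in ectoderm, 17 of 36 in endoderm and 19 of 43 in mesoderm. In ectoderm they include MALAT1, SOX21, FZD2, NANOGP8, IRS4, PCDHB2, PCDHB5, PCDHB10 and PCDHB15. In endoderm they include HSPA1A, HSPA1B, APLNR, DIO3, TSPYL4 and CLDN4, and in mesoderm JUN, NOG, CEBPD, MIR302CHG and FZD7. For NOG and CEBPD 14 gave a value, with none from DESeq2 or without mesoderm repeat 1. Both passed the filter only through mesoderm. For MIR302CHG (no GC value) and MAB21L2 (none from DESeq2) 15 did. Other families were thinly tested. Of 162 members named for an antisense or divergent position 9 were tested. In ectoderm 2 were higher and 1 lower, in endoderm 1 was lower, and in mesoderm 2 were higher. The share called was 33.3%, 11.1% and 22.2%, below the background of 45.9%, 26.7% and 32.8%. Of 8 BTB-kelch adaptors 4 were tested, with 1 higher in each layer, where the background was 23.8%, 13.1% and 16.5%. The 3 tested of 7 MAGE and imprinted genes had 1 lower in ectoderm (background 22.1%) and 1 in mesoderm (16.3%), MAGEE1 in both. Its mesoderm call (3 and 0 counts against 7 and 11 for hPSC, edgeR adjusted p 0.0471) was lost without hPSC repeat 2 (0.116), either endoderm repeat (0.0626 and 0.0593) or either mesoderm repeat (0.0529 and 0.310), with the replicate block (0.0621), with RLE size factors (0.0516) and with a GC trend removed (0.110). None of 19 zinc finger, 5 FOX and 1 POU members had enough counts. No call was made in any layer for 48 tested members. RNF26, a ubiquitin ligase with 4528 counts, was among them, with log2 fold changes of -0.61, -0.77 and -0.71 and adjusted p of 0.0944, 0.0618 and 0.0737.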

How the data were processed

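Counts per assembled transcript, deposited by the authors as whole raw counts with no normalization, were joined to the combined assembly by transcript identifier. The deposited endoderm columns, handled under the unit of expected counts, hold whole raw counts too, so nothing was rounded. The deposited transcript coordinates define start, end and exons. Per the submitters' processing notes, minimap2 and StringTie were used on GRCh38; which counter was used, and whether strand was, is not given in the sources used here. Gene types, exon counts and transcript sequences came from GENCODE 29, promoter and microRNA sequences from RefSeq (GRCh38.p14); 569 of 1526 members have a promoter entry by symbol.

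Samples were grouped by the labels. The test was edgeR 4.0.16's, run in R 4.3.3 (TMM, filterByExpr at a minimum count of 10, 1 quasi-likelihood fit over 8 libraries, two-sided, Benjamini-Hochberg over 12440 transcripts, threshold 0.05). SE is the log2 fold change divided by the square root of F. Where a group is at 0, folds are bounds against 3 counts per library. At 1 to 3 counts, ratios of pooled CPM carry 95% exact conditional binomial intervals. Bounds and intervals cover counting error only. Data were simulated for 12440 transcripts with 200 of them changed 4-fold. The share recovered was 59% in the ectoderm, 54% in the endoderm and 53% in the mesoderm comparison with hPSC. From 5.6% to 6.9% of those calls were false. Far fewer transcripts changed there than were called in the data, and the hPSC repeats shared the same means. The rates may therefore not hold for the calls reported here. Alternatives were RLE factors, DESeq2 1.42.0, other filters, the replicate block, each library left out, 4 libraries only and gene sums; GC and length trends were added after seeing the data. Identities are edlib 1.3.9.post1 alignments of the shorter transcript inside the longer.

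Some members that the rule takes are not reported here. Members and lists were chosen with earlier results of these data known. The members named are the 5 with most counts in 4 gene classes, the 4 highest and 4 lowest called members with a symbol and at least 10 CPM in each layer, 2 to 4 examples of each family by CPM, and markers. RPRM, TBCC, ENSG00000288967, hosts of microRNAs and the further protocadherin, SOX and retrotransposon-derived members fall outside this rule and were named after their values were seen.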

Additional observations from a re-analysis of the deposited data

Results flagged for a closer look

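For 9 members called in opposite directions in 2 layers, the layers were compared with each other in the same edgeR fit. The members were picked by those calls, so small adjusted p-values were nearly fixed in advance and add no separate support. Differences are log2 fold changes of the layer named first minus the layer named second, with adjusted p over all tested transcripts. Ectoderm minus endoderm was 10.18 for FJX1 (adjusted p 9.66e-06), 5.78 for FZD2 (1.84e-05), 4.68 for SOX11 (7.93e-05), -2.68 for RTL8A (6.35e-05), -3.08 for RTL8C (2.82e-06), -3.33 for HSPA1B (2.14e-06) and -6.24 for RPRM (3.85e-06). Endoderm minus mesoderm was 6.10 for RPRM (4.87e-05), -5.10 for FZD2 (0.000245), -5.94 for CLDN4 (8.50e-07) and -9.09 for TRIL (3.41e-05). FJX1 and TRIL had 0 counts in endoderm, so their values depend on the prior count and give no size.

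Single-exon matched transcripts outside chromosomes 1 to 22 and X entered no comparison. They took from 0.912% (ectoderm repeat 2) to 3.96% (hPSC repeat 2) of a library's counts, almost all in 14 mitochondrial transcripts, and 1.81% in hPSC repeat 1.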

How the results depend on the processing

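With DESeq2's Wald test the members called were 20 of 155 tested in ectoderm, 23 of 172 in endoderm and 19 of 141 in mesoderm. DESeq2's likelihood ratio test called 64 of 264 among the 4 groups. Gene sums gave 149, 81, 97 and 249 of 348 genes. With no filter on low counts 200 of 1526 differed among the 4 groups, and with only the 4 libraries compared 28 of 99 tested did in mesoderm. Leaving out 1 library gave from 32 to 78 in ectoderm, from 25 to 72 in endoderm, from 25 to 77 in mesoderm and from 97 to 147 among the groups, where other transcripts also pass the filter. With the replicate block the counts were 49, 35, 39 and 100 of 140. The share called over all transcripts was not taken for any of these alternatives, so their counts have no background beside them. The deviations of same-numbered libraries correlated between -0.05 and 0.16. With a single difference per group, these values cannot tell whether the repeat numbers pair the samples. The share of counts was 1.02% in ectoderm, 0.756% in endoderm and 0.928% in mesoderm without MALAT1, 1.43% and 0.974% in ectoderm and mesoderm counted in the group's own assembly, and 0.788% in endoderm over chromosomes 1 to 22 and X; without 1 repeat it was 0.917% to 1.12% in hPSC, 1.16% to 1.20%, 0.758% to 0.766% and 1.00% to 1.07%. Log2 fold changes that turned sign were KCNQ1OT1 (-0.089), ENSG00000237550 (0.25) and TBCC (0.19) in ectoderm and H4C3 (0.10) in mesoderm with the length trend removed, and PCBP1 in ectoderm without hPSC repeat 1 (0.11), where leaving out 1 library gave from -2.45 to 0.11. The cause was not tested. Depth limits the list: 140 of 1526 members could be tested.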
